A study of Mus musculus with 7 samples.

Results

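The regions described here are long non-coding transcript clusters that carry no gene symbol and stand apart from the coding genes that changed with them in testes of mice lacking *Ctcf* in germ cells. A transcript cluster is the set of array probes read together as a single transcript. Clusters were taken where the deposited table puts them in its class NonCoding and gives them a position, a span above 200 bp and no symbol, where they overlapped no row of its classes Coding or Complex on the same strand, and where no such row lay within 5 kb on the opposite strand. These conditions left 1540 of the 7580 rows of the table. Of its 3192 NonCoding rows, 3181 had a position, 2821 of those were longer than 200 bp and 2169 of those had no symbol. Requiring no coding row on the same strand left 1670, and the distance on the opposite strand left the 1540. The rule used no measured value of the clusters themselves, but every row of the table had already passed the authors' selection on fold change and p. All members thus differed between the genotypes by that selection, and the size of the difference is given as a description. The coding rows had passed it too, so whether a cluster stands apart depends on which of its neighbours changed.

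RNA came from seminiferous tubules, freed of the tunica, of 3 wild-type and 4 *Ctcf*-cKO mice, with an own mouse transcriptome array for the RNA of every animal. The *Ctcf*-cKO mice carried 1 floxed and 1 already excised *Ctcf* allele (*Ctcf* f/Δ) together with *Stra8*-iCre, a transgene under the *Stra8* promoter whose Cre is made by spermatogonia and by spermatocytes about to enter leptotene. Wild-type littermates were *Ctcf* f/f, wt/f or wt/wt. All were on a C57BL/6J background, printed as C56BL/6J in the paper, and 12 to 15 weeks old. CTCF is not removed from Sertoli cells, Leydig cells and the other somatic cells of the testis, nor from spermatogonia that have not expressed Cre, and the testes of the mutants are smaller, so the tubules of the genotypes can differ in their mix of cells. Every value below is the authors' mean of a genotype, a bi-weight average on the log2 scale. The table holds 0 columns for single arrays. The spread between animals could therefore not be computed, no test between genotypes was made, and the number of arrays limits how precise any value can be. Positions are those of the table, on build GRCm38 (mm10).

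Long non-coding RNAs are transcripts without a long open reading frame, and the testis transcribes more of them than most tissues do. Many are switched on in meiotic spermatocytes and round spermatids, some act as the precursors that are cut into piRNAs, the small RNAs that guide PIWI proteins against transposons, and for most no function is known. Others come from introns of long genes and may be parts of an unspliced transcript rather than RNAs of their own. CTCF is a zinc finger protein that binds a GC-rich consensus, stops cohesin as it extrudes loops and separates chromatin domains.

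The tissue was checked with marker genes among the coding rows. All 8 markers of primary spermatocytes that were looked up had a row and were lower, from *Meiob* with a difference of -1.57 to *Dmc1* with -1.04, and the signal summed over the list fell from 12.74 to 11.45 with *Piwil1* as its brightest gene. The paper reports other genes of these cells, among them *Sycp3*, *Syce2* and *Rec8*, as unaffected. Those were not on the list, so it does not stand for all genes of spermatocytes. Of the markers of round spermatids, 7 of 7 were lower, and their summed signal went from 13.24 to 11.94, with *Tssk2* as the brightest. For elongating spermatids *Prm3* and *Akap4* had a row and the other 7 of 9 had none, with differences of -1.04 and -1.02 and a summed signal of 11.73 in wild-type and 10.71 in the mutant. Germ cells at and after meiosis were therefore present in the tubules, and those of their markers that had a row were lower in the mutant. In the other direction, 5 of 7 Sertoli cell markers had a row and all 5 were higher, with a summed signal of 11.81 in wild-type and 13.20 in the mutant and *Clu* as the brightest. Of 6 Leydig cell markers, 5 had a row and all 5 were higher, from 1.39 for *Cyp17a1*, the brightest, to 2.97 for *Lhcgr*, and their summed signal rose from 12.37 to 14.13. *Acta2* and *Myh11* of peritubular myoid cells (2 of 4 with a row, summed 10.03 and 11.38), *Csf1r* and *Cd68* of macrophages (2 of 4, summed 7.42 and 9.10) and *Cdh5* and *Kdr* of endothelial cells (2 of 4, summed 7.70 and 8.83) were higher too. Among 6 spermatogonial markers *Kit*, which Leydig cells also express, had a row, at 7.81 and 10.09. A marker without a row has no value here. In these bulk samples, fewer cells of a type and less RNA per cell cannot be told apart, and the part of the cell mix in the differences of the non-coding clusters was not tested.

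Most of the unnamed clusters were lower in the mutant. Of the 1540, 1158 were lower in *Ctcf*-cKO and 382 were higher, so that 75.2% were lower (exact binomial 95% interval 73.0 to 77.3%, counting error of rows only), against 64.9% of all rows of the table. The clusters that obey the same conditions but carry a symbol were lower in 486 of 533 cases (91.2%), whereas long NonCoding rows in or near coding rows were lower in 304 of 748 (40.6%) and coding rows in 2549 of 4102 (62.1%). Lower members had a median difference of -1.33 and higher members one of 1.23, beside -1.31 and 1.30 over all rows. Subtracting the median difference of the whole table, -1.15, turned the split into 877 lower and 663 higher members (56.9% lower), but that median comes from rows selected for their fold and is not that of the array. Differences of 3-fold or more were found in 286 lower members (18.6% of all members), where 12.5% of all rows were lower by as much, and in 69 higher members (4.48%), where 8.40% of all rows were higher by as much. Larger differences among these clusters thus fell mainly on the lower side, by counts that were not tested.

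Members were short beside coding genes. Their span had a median of 2679 bp, with 1466 and 5863 bp as quartiles, and ran from 244 to 335690 bp, whereas the median of coding rows was 18383 bp and that of the named stand-alone clusters 9305 bp. Lower members had a median span of 2912 bp and higher members one of 2298 bp. Of the 266 members longer than 10 kb, 241 were lower. The shortest members, 5 rows of 244 bp, lay just inside the limit on span. Of these, 3 on chromosome 2 had the same averages (10.36 and 8.58), TC0400003699.mm.1 was lower too (9.41 and 8.03) and TC0500002036.mm.1 was higher (6.57 and 7.67). The unnamed stand-alone row next below the limit, TC0200004869.mm.1 of 193 bp, averaged 10.91 in wild-type and 9.08 in the mutant. At the limit of 5 kb, TC0500002621.mm.1 was 5021 bases from a coding row on the other strand (8.52 and 6.69), and TC0200005236.mm.1, left out, was 4695 bases away (5.86 and 7.44). On the same strand only overlap was excluded, so members could lie close to a coding row. There, TC0X00002680.mm.1 was 29 bases away (6.4 and 5.3), TC0400000408.mm.1 60 (9.38 and 7.79) and TC1100004001.mm.1 72 (4.55 and 6.09).

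Signals were modest. The median of the members was 7.10 in wild-type and 6.24 in the mutant, and 1369 members (88.9%) reached 6 in at least 1 genotype, compared with 99.4% of coding rows. Lower members went from a median of 7.38 to 6.0 and higher members from 5.87 to 7.16. Most members, 1154, were read by 30 probes. When members were ordered by the brighter of their averages and cut into 4 groups of like size, the dimmest group, up to 6.59, was lower in 68.1% of cases, the next groups in 78.0% and 79.9% and the brightest, from 8.17 up, in 74.8%, with median differences of the lower members of -1.17, -1.26, -1.37 and -1.55 in this order.

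Direction differed with the kind of transcript record. NONCODE, the catalogue from which most of these clusters were built, sorts transcripts by their place relative to genes. Of 968 members whose records were of the class Linc, set as lying between genes, 813 were lower (84.0%). The 204 of the class Antisense were lower in 185 cases (90.7%). By contrast, 337 members of the class Sense No Exonic, set as lying within a gene on its own strand without sharing an exon, were lower in 140 cases and higher in 197 (41.5% lower). These intronic members made up 21.9% of all members and 197 of the 382 higher ones. Their wild-type signals had a median of 6.12 and those of Linc 7.31, but signals of different probes are not an order of abundance. A testis cDNA of the RIKEN collection backed 15 members, and all 15 were lower, with a median difference of -1.43, where 75.2% of all members and 64.9% of all rows were lower.

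RefSeq annotation of the same build gave a similar division. A strand could be assigned to 28239 of 49997 RefSeq genes, so overlaps are given only as far as these reach. A protein-coding gene on the same strand overlapped 362 members, of which 175 were lower and 187 higher (48.3% lower). An lncRNA gene and no coding gene on the same strand overlapped 371 members, and 337 of them were lower (90.8%). No RefSeq gene on either strand was found at 384 members, 313 lower (81.5%), and a gene on the opposite strand only at 145, 126 lower (86.9%). Another 269 overlapped genes without an assigned strand, and 200 of these were lower. Genes of other kinds on the same strand overlapped 4 members.

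The member with the largest fall was TC1300002218.mm.1, a Linc cluster at chr13:65491797-65496793 on the minus strand with no RefSeq gene, which averaged 9.38 in wild-type and 6.54 in the mutant, 7.16-fold lower. TC0100002035.mm.1 (chr1:20866813-20869893, minus) followed with 7.52 and 4.87. TC1900000877.mm.1 (chr19:3145934-3147656, minus) averaged 9.26 and 6.67, a difference of -2.59. Within a run of 5 lower clusters, TC0300001504.mm.1 (chr3:147426376-147427513, plus) averaged 7.53 and 4.95. TC0300002039.mm.1 (chr3:58079716-58081834, minus) averaged 7.91 in wild-type and 5.37 in the mutant.

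The sixth and the eighth largest falls were on chromosome 5. TC0500001959.mm.1 (chr5:11750862-11751871, minus), which overlaps the lncRNA gene *1700003C15Rik*, averaged 8.67 and 6.16. TC0500001954.mm.1 (chr5:11321833-11322842, minus) in *Gm32877* averaged 8.54 and 6.15. Both spanned 1010 bp, and each had a lower coding row within 20 kb, 18677 bases away for *Gm8926* (11.14 and 9.68) and 17566 bases away for *Speer1-ps1* (11.44 and 9.95). The remaining 3 of the 10 largest falls were on the sense strand of long genes or opposite to one. TC1400002541.mm.1 (chr14:93276309-93277992, minus) in *Pcdh9*, a protocadherin gene, went from 6.0 to 3.50. TC0500000139.mm.1 (chr5:19257703-19261233, plus) in *Magi2*, which encodes a scaffold protein of cell junctions, went from 8.49 to 6.12. TC0100000165.mm.1 (chr1:24414655-24415505, plus), of the class Antisense, averaged 7.83 and 5.51.

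Among higher members, the largest difference was at *Gramd1b*, a gene whose protein moves cholesterol from the plasma membrane to the endoplasmic reticulum and which is active in steroid-producing cells. TC0900002096.mm.1 (chr9:40350606-40352570, minus), of the class Sense No Exonic, averaged 5.43 in wild-type and 8.48 in the mutant, 8.28-fold higher and the largest difference of any member. Its wild-type average was below 6, a weak signal, as were those of some other large rises given below. The sizes and ranks of such rises are therefore approximate. TC0900002098.mm.1 (chr9:40363217-40366902, minus), at 6.72 and 9.63, had the third largest rise. All 3 members within *Gramd1b* (chr9:40293233-40533614, strand not assigned) were higher, by 2.26 to 3.05. Leydig cell markers, among them *Lhcgr*, *Star* and *Cyp11a1*, were higher as well, by 2.97, 2.15 and 2.20, and their part in this was not tested.

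The second largest rise was that of TC0100002474.mm.1 (chr1:65011286-65012347, minus), from 5.84 to 8.83. It lay 342 bases from *Akr1cl*, an aldo-keto reductase gene that was higher on its own row, at 9.66 and 11.89. TC1000002805.mm.1 in *Tmtc2* (chr10:105556615-105557787, minus) averaged 4.91 and 7.49. On chromosome X, TC0X00000908.mm.1 (chrX:94973752-94979512, plus) averaged 8.91 and 11.32. The cluster and its neighbours there went in different directions, as described further on. TC0400002118.mm.1 (chr4:3199404-3200319, minus), at the start of the RefSeq gene *Gm52720*, averaged 9.39 and 11.73. TC0300001424.mm.1 (chr3:138755054-138757596, plus) in *Tspan5*, a tetraspanin gene, averaged 6.52 and 8.85. Of the clusters with a difference of 2.31, which came last among the 10 largest rises, TC0500000244.mm.1 (chr5:26092201-26095372, plus) averaged 6.81 and 9.12, TC1300001351.mm.1 9.89 and 12.20 and TC1600002047.mm.1 (chr16:90348725-90349642, minus) 9.32 and 11.63.

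A run of 4 higher clusters at chr19:5814395-5845129 on the plus strand, which held 2 of the 10 largest rises, lay opposite to *Neat1*, the lncRNA that builds nuclear paraspeckles. TC1900000085.mm.1, which spans 28478 bp and was read by 15 probes, averaged 5.21 and 7.71. Inside it, TC1900000087.mm.1 (chr19:5830960-5835079) averaged 5.99 and 8.31 and TC1900000086.mm.1 (chr19:5829739-5830930) 5.19 and 7.39. TC1900000088.mm.1 (chr19:5843698-5845129) averaged 6.41 and 8.14. The row of the table named *Neat1* is on the minus strand (chr19:5824708-5845704) and was higher as well, with averages of 8.64 and 11.11, and TC1900000085.mm.1 begins outside its bounds. Whether the plus-strand rows report a separate transcript or signal of *Neat1* itself cannot be told from group averages. The nearest coding row, *Slc25a45*, was 34936 bases from TC1900000085.mm.1 and was higher too (7.58 and 8.79).

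The 5 members with the highest wild-type averages were all lower in the mutant. An array signal depends on its probes, so their order is not one of abundance. TC0200004866.mm.1 (chr2:151403958-151404783, minus, in *LOC100125594*) had the highest wild-type average, 11.30, and 9.68 in *Ctcf*-cKO. TC1000000495.mm.1 (chr10:56504501-56505287, plus) averaged 11.18 and 9.96, and TC0700003605.mm.1 (chr7:81212188-81213173, minus) 11.13 and 9.55. The other 2 of these 5, TC1200002180.mm.1 (chr12:98385063-98387658, minus) and TC0200001422.mm.1 (chr2:92549300-92550128, plus), started at 10.90 and 10.82 and were 3.46-fold and 2.81-fold lower.

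The 5 highest *Ctcf*-cKO averages belonged to higher members. TC1300001351.mm.1 (chr13:119661842-119662639, plus) reached 12.20 from 9.89 in wild-type and lay 27807 bases from *Hmgcs1*, an enzyme gene of cholesterol synthesis, which was higher at 9.62 and 11.25. TC0M00000018.mm.1, on the mitochondrial genome, reached 12 from 10.33. TC0700003063.mm.1 (chr7:48126637-48132180, minus) averaged 9.62 and 11.75. Besides TC0400002118.mm.1, the list held TC1300000651.mm.1 (chr13:55184771-55186647, plus), at 9.59 and 11.64. None of the last 3 had a coding row within 100 kb.

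Of the 5 longest members, 4 were on chromosomes 12 and 13. TC1200001385.mm.1 (chr12:7524002-7859691, minus), which overlaps the lncRNA gene *Gm32828*, spanned 335690 bp and averaged 7.93 and 6.35. TC1300002221.mm.1 (chr13:65845997-66062987, minus) spanned 216991 bp across *Gm40986*, *Gm32476* and *Gm40987* and averaged 9.33 and 7.57. Unlike these, 3 were higher. TC1300002265.mm.1 over *Urml* (chr13:68233965-68450077, minus) averaged 8.85 and 9.97. TC1300002159.mm.1 (chr13:62083147-62296170, minus) averaged 9.67 and 10.78, and TC0900003302.mm.1 (chr9:123306569-123462555, minus) 6.69 and 7.89.

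Members were gathered into runs by chaining those less than 100 kb apart on either strand. This gave 213 runs of 2 or more, with 547 members (35.5%), and left 993 members alone. All members were lower in 144 runs, all were higher in 48, and 21 were mixed. Of the 60 runs of 3 or more members 4 were mixed, and none of the 14 runs of 5 or more. Members in runs were lower in 70.6% of cases and members alone in 77.7%. Median length was 58.1 kb.

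Distance along the strand went with direction. Neighbouring members on the same strand at most 10 kb apart moved the same way in 86 of 86 pairs, 50 lower and 36 higher. Between 10 and 100 kb, 173 of 178 pairs did (97.2%), and between 100 kb and 1 Mb 238 of 336 (70.8%), where members paired without regard to place would agree in 62.7% of cases, given that 75.2% were lower. Neighbours this close may be pieces of a single transcript, so they are not independent of each other.

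Members within the bounds of the same gene mostly went the same way. On the strand of the member, 231 protein-coding genes with a strand from RefSeq promoter windows overlapped members. Of the 53 with 2 or more, 26 held lower members only and 27 higher members only, with 0 mixed. Among the 14 genes without an assigned strand that overlapped 2 or more members, 4 were mixed: *Fam155a*, with 4 lower and 3 higher members on stretches apart from each other, *Arhgap24* (1 lower, 2 higher), *Bicral* and *Ptprd* (1 of each). The genes themselves mostly had no coding row. That is largely set by the rule, which left out clusters overlapping a coding row on their strand, so it is no result about these genes. Among the 231, 30 had a Coding or Complex row elsewhere in their span or at another copy, and in 29 of these the row went the same way as the member, as at the tudor-domain gene *Tdrd12* (9.99 and 8.53), the protease gene *Ctsl* (10.44 and 12.18) and the lysosomal membrane gene *Scarb2* (7.46 and 9.25). The exception was *Rmdn2*, lower on its row (10.52 and 9.29) with a higher member.

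The run with the most members had 13, all lower, over 300.2 kb at chr12:41112507-41412664. It lies in *Immp2l* (chr12:41024061-41955588), which encodes a subunit of the protease of the inner mitochondrial membrane. The first, TC1200000370.mm.1 (chr12:41112507-41116805, plus), averaged 7.90 and 6.42, and the largest fall was that of TC1200000375.mm.1 (chr12:41168646-41170870, plus), from 7.81 to 5.83. On the minus strand, opposite to *Immp2l*, TC1200001673.mm.1 (chr12:41330915-41348078) had the smallest, from 7.75 to 6.46, and TC1200001675.mm.1 at the far end (chr12:41405055-41412664) went from 6.99 to 5.57. Both strands were lower, and the 2 minus-strand members (-1.29 and -1.42) fell less than each of the 11 on the plus strand (-1.98 to -1.45).

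The next run, with 11 members over 384.7 kb at chr5:19198483-19583190, had 10 of them in *Magi2*. All were lower, by differences of -2.37 to -1.82 around a median of -2.06, a larger fall than the -1.33 of lower members at large. TC0500002001.mm.1 (chr5:19198483-19201605, minus), before the start of *Magi2* and on the other strand, averaged 6.63 and 4.69. The largest fall was at TC0500000139.mm.1, given above, and the smallest at TC0500000146.mm.1 (chr5:19459720-19461401, plus), from 7.98 to 6.16. TC0500000148.mm.1 (chr5:19577748-19583190, plus) closed the run at 6.94 and 4.92. With 4 further members outside the run, *Magi2* held 14. That no coding row of *Magi2* covered them follows from the rule.

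In *Nrg3*, which encodes a ligand of the receptor ERBB4, 5 lower members spanned chr14:38658125-38856759. The 4 on the minus strand, that of *Nrg3*, were TC1400001755.mm.1 (4.70 and 3.70, chr14:38723804-38725911), TC1400001756.mm.1 (6.50 and 4.91, chr14:38819031-38823235), TC1400001757.mm.1 (6.67 and 5.15, chr14:38836319-38840282) and TC1400001758.mm.1 (7.25 and 5.14, chr14:38851335-38856759). All 4 were below 6 in the mutant, a weak signal, so their differences are not compared with each other. TC1400000399.mm.1 on the plus strand (chr14:38658125-38668439) averaged 6.15 and 5.08.

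Other lower runs lay in further long genes. *Fgf14*, whose protein binds sodium channels, held 5 at chr14:124323263-124508431 with differences of -1.88 to -1.23. Their *Ctcf*-cKO averages were 3.81 to 5.22, weak signals. *Pcdh9* held 5 at chr14:93219796-93319354 (-2.50 to -1.07), where the *Ctcf*-cKO averages were between 3.50 and 3.93, near the lowest of any member (3.22), so that these differences, that of TC1400002541.mm.1 among the largest falls included, may be limited by the weakest signal the array gives. *Macrod2*, an ADP-ribosyl hydrolase gene, held 5 in a run at chr2:140412911-140554597 (-1.58 to -1.29) and 10 in all. Within *Kcnq3*, a potassium channel gene, 4 members at chr15:66149271-66268915 were lower by -1.62 to -1.0. Other such runs were in *Ssh2*, which encodes a cofilin phosphatase, with a member in *Efcab5* beside them (chr11:77198978-77345502, 5 members, -1.95 to -1.44), and in the mucin gene *Muc16* (chr9:18519615-18672644, 4 members, -1.57 to -1.32). Clusters under a coding row on their strand had been left out by the rule. Of these genes, *Efcab5* alone had a coding row, which was lower at 10.62 and 8.84.

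Lower runs were also found away from coding genes. At chr3:147309533-147433287, 5 clusters on the plus strand around the lncRNA genes *Gm36831*, *Gm40172* and *Gm37041* fell by between -2.58 and -1.01. On chromosome 13, 4 members at chr13:50137069-50394046 were lower by -1.73 to -1.49, among them TC1300000585.mm.1 with a span of 126071 bp (9.42 and 7.75), and 4 more at chr13:50810848-50934059 by -1.70 to -1.12. Each of these places on chromosome 13 included clusters on both strands.

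Runs of higher members lay in other genes. In *Rora*, a nuclear receptor gene, 6 members at chr9:68805409-68978660 were higher. TC0900000897.mm.1 (chr9:68805409-68809467, plus) went from 5.01 to 7.08 and TC0900000899.mm.1 (chr9:68835927-68846475, plus) from 5.27 to 7.29. Of the next 3, TC0900000900.mm.1 (chr9:68900149-68902237) went from 5.19 to 6.36, TC0900000902.mm.1 (chr9:68920620-68923945) from 4.98 to 6.09 and TC0900000903.mm.1 (chr9:68937237-68939035) from 4.78 to 5.90. TC0900000905.mm.1 (chr9:68976481-68978660) averaged 4.87 and 6.50. All 6 started from weak signals, so their differences are not compared with each other. *F830001A07Rik*, a coding row 151 bases from TC0900000899.mm.1, was higher as well (5.92 and 7.16).

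The other run of 6 higher clusters, at chr5:25997241-26174730, had no coding gene assigned to its strand and, in 5 of its 6 clusters, brighter signals. TC0500000239.mm.1 (chr5:25997241-26053727) averaged 8.79 and 10.73, TC0500000241.mm.1 (chr5:26014224-26016089) 8.24 and 10.05 and TC0500000243.mm.1 (chr5:26082172-26084457) 6.41 and 8.59. TC0500000244.mm.1 was given above, and TC0500000245.mm.1 (chr5:26096569-26098364) averaged 7.91 and 9.75. The smallest difference, 1.11, was that of TC0500000242.mm.1 (chr5:26071275-26174730), the dimmest of the run at 5.20 and 6.31, whose 103456 bp cover 3 of the others and several lncRNA genes, among them *Gm34067*. All 6 were on the plus strand and none had a coding row of the table within 100 kb.

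Further higher runs, with smaller differences, were in *Ppp3ca*, the gene of a catalytic subunit of calcineurin (chr3:136683813-136826978, 5 members, 1.02 to 1.56), in *Grip1*, the gene of a scaffold of glutamate receptors, and just before it (chr10:119418402-119524458, 5 members, 1.16 to 1.42), and in the catenin gene *Ctnna2* (chr6:77412300-77545191, 4 members, 1.10 to 1.48). *Dlc1* held 4 at chr8:36715261-36824804 (1.06 to 1.57) and *Fbxl7*, an F-box gene, 4 at chr15:26707391-26774026 (1.02 to 1.46). Over all members of a gene, in runs or not, *Bnc2* held 4 higher members (1.06 to 1.26) and the phosphodiesterase gene *Pde4d* another 4 (1.02 to 1.46). Wild-type averages in *Dlc1*, *Fbxl7* and *Bnc2* lay between 4.05 and 5.61, so these rises started from weak signals. Those in *Pde4d* (3.97 to 6.7), *Ctnna2* (4.89 to 6.21) and *Ppp3ca* (5.44 to 6.52) were weak in part.

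On chromosome 16, 5 higher clusters at chr16:77539882-77695619 started inside *Mir99ahg*, known as the host of a conserved set of microRNAs. The RefSeq model of this gene ends at 77558428, and the other 4 clusters lie beyond it, around the microRNAs. Their differences ran from 1.02 at TC1600000875.mm.1 (6.33 and 7.35) to 1.36 at TC1600000882.mm.1 (6.62 and 7.98). Separate rows of the table for the microRNAs, which lie between these members, were higher too: *Mir99a* averaged 5.95 and 7.37, *Mirlet7c-1* 4.27 and 5.56 and *Mir125b-2*, whose row (chr16:77646273-77649426) reaches far beyond the hairpin, 3.96 and 5.0. The array probes may read the host or the precursor, so these are not levels of mature microRNA. The mature 5p sequences from RefSeq are shown because they identify what lies within the run, with the seed, bases 2 to 8, in capitals, and the 3 seeds differ from each other.
mmu-miR-99a-5p (chr16:77598940-77598961, plus strand): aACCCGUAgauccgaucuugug
mmu-let-7c-5p (chr16:77599672-77599693, plus strand): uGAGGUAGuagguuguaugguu
mmu-miR-125b-5p (chr16:77646279-77646300, plus strand): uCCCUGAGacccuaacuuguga

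Opposite directions over shared bases were found on chromosome X. At chrX:94875142-94979512, TC0X00000907.mm.1 on the plus strand, with a span of 100246 bp, rose from 9.41 to 10.70, and TC0X00000908.mm.1, also plus, from 8.91 to 11.32. On the minus strand across them, TC0X00002657.mm.1 (chrX:94903652-94979265) fell from 10.25 to 9.01 and TC0X00002656.mm.1 (chrX:94879297-94910321) from 7.41 to 5.55. The strands thus went in opposite directions over up to 71736 shared bases. Among all members there were 11 pairs that overlapped on opposite strands, 6 both lower, 2 both higher and 3 opposite, and the 3 are the pairs at this place.

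The other mixed runs of 4 showed a break between a gene and its surroundings. In *Prickle1*, a planar cell polarity gene, 3 members on its strand were higher, as TC1500002104.mm.1 (chr15:93590380-93594895, minus) from 6.44 to 7.83. TC1500000922.mm.1 (chr15:93611823-93624890, plus), over the lncRNA gene *Gm41385* beyond the gene's start, was lower, from 6.96 to 5.58. At *Ube2e3*, a ubiquitin-conjugating enzyme gene, 3 members were higher by 1.05 to 1.20, and TC0200001149.mm.1 (chr2:78845113-78856537, plus) before the gene went from 7.45 to 5.86.

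Records of germline small RNAs mark a set of members. The table names a piRNA or a germline small RNA for 11 members, all 11 lower, with averages of 8.19 or more in wild-type, a median difference of -1.58 and 5 past 3-fold. Over all members 75.2% were lower and 18.6% lower by 3-fold or more, and over all rows 64.9% and 12.5%. The largest fall was that of TC0400003067.mm.1 (chr4:94310668-94311031, minus, in *Gm12648*), from 10.31 to 8.28. TC1000002299.mm.1 (chr10:66692703-66695600, minus) averaged 9.91 and 8.11 and TC0700003502.mm.1 (chr7:73773928-73780453, minus) 9.04 and 7.30. TC0400002783.mm.1 (chr4:62220612-62228542, minus), for which the table names 3 such small RNAs, averaged 9.56 and 8.02. *Piwil1*, whose protein binds the piRNAs of pachytene spermatocytes and round spermatids, was among the lower markers, at 10.80 and 9.49, and the part of germ cell content in these falls was not tested.

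A place on chromosome 17 held a pair of them back to back. TC1700001736.mm.1 (chr17:27323911-27325053, minus) fell from 10.20 to 9.01, and TC1700000435.mm.1 (chr17:27325354-27327008, plus, in *Gm10505*) from 9.42 to 7.84. Their 5′ ends lie 301 bases apart and the transcripts point away from each other. Members arranged in this way within 1 kb made 4 pairs in all, each with both members lower. Of all members 75.2% were lower, and of all rows 64.9%. Same-strand neighbours at most 10 kb apart agreed in 86 of 86 pairs, so the 4 show nothing particular to this arrangement. The run around them, chr17:27311874-27399200, held 4 members, all lower by -1.58 to -1.19. Short rows of the table annotated as microRNA genes within the run, *Mir7214* (9.98 and 8.39) and *Mir7216* (7.99 and 6.89), were lower too. A similar run of 5 at chr5:113319883-113413068, on both strands, was lower by -1.46 to -1.06, with *Mir7230* between its members at 11.95 and 10.57. The remaining records were on chromosomes 6, 8, 15 and Y, where TC0Y00000141.mm.1 (chrY:46482223-46482697, plus), a piRNA precursor record, averaged 9.30 and 8.09.

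Most members were far from any coding row that changed. The rule itself sets part of this distance, as it excluded overlap on the same strand and 5 kb on the other. The median distance to the nearest Coding or Complex row was 283.2 kb, and 429 members (27.9%) had such a row within 100 kb. Within 20 kb, 148 members had one, and 124 of these (83.8%) went the same way as that row, 85 of 103 lower and 39 of 45 higher members. From 20 to 100 kb it was 182 of 281 (64.8%), and beyond 100 kb 579 of 1107 (52.3%), beside 54.5%, 53.4% and 49.1% expected from the shares of lower members and lower rows at each distance. Similarity of direction therefore declined with distance, in counts that share rows and were not tested.

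Chromosomes differed in direction. On chromosome 14, 92 of 99 members were lower (92.9%), as were 83.3% of its coding rows and 84.4% of all its rows. For chromosome 1 it was 67 of 77 (87.0%), beside 52.2% of its coding rows and 58.75% of all its rows. On chromosome X, 15 of 42 members were lower and 27 higher (35.7% lower), beside 52.5% of its coding rows and 49.6% of all its rows. Members made up 7.45% of the rows of chromosome X, and 29.8% of those of chromosome 8. Chromosome 5 had the most members, 108, of which 86 were lower (79.6%), beside 74.2% of all its rows.

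Promoter sequence could be read for members whose 5′ end fell inside a RefSeq promoter window on the same strand, 250 bases before to 50 after an annotated start. There were 150 such members, 142 of the lower ones (12.3%) and 8 of the higher ones (2.09%), so annotated starts were found mainly at lower members. Motifs were searched on both strands, AGGGGGC as the core of the CTCF consensus, TGACGTCA as the full cAMP response element bound by CREM and its relatives, and GTTGCCA as part of the X-box bound by RFX proteins, and none of the 3 contains another. AGGGGGC was in 10 of the 150 windows (6.67%), beside 6.39% of 11588 lncRNA windows and 10.6% of all 32851 windows. TGACGTCA was in 5 (3.33%), beside 0.975% of lncRNA windows, 1.79% of all windows and 2.245% of windows of genes with a coding row. All 5 were at lower members, as were 142 of the 150 windows, so this says nothing on direction. GTTGCCA was in 16 (10.7%), beside 4.75% and 4.38%, and 6.77% of the 3118 windows of genes with a coding row. The windows had a median GC content of 47.3%, near the 48.3% of all lncRNA windows. A match is a description of the letters and not a bound site, and these counts were not tested.

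Among the 142 lower members with a window, those of the 3 largest falls are shown with any match in capitals. TC1300001243.mm.1 averaged 6.38 and 4.16, TC1500001616.mm.1 7.08 and 4.98 and TC1400001116.mm.1 6.41 and 4.32. None of the 3 motifs was in these windows, so no letters are in capitals.
Gm32990 (TC1300001243.mm.1, chr13:110568462-110568761, plus strand): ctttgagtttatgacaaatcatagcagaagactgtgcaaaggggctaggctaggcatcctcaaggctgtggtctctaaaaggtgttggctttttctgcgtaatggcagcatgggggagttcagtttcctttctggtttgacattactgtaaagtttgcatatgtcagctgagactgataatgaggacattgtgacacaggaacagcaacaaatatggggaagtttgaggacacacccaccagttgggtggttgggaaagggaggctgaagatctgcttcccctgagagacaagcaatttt
Gm30159 (TC1500001616.mm.1, chr15:63145397-63145696, minus strand): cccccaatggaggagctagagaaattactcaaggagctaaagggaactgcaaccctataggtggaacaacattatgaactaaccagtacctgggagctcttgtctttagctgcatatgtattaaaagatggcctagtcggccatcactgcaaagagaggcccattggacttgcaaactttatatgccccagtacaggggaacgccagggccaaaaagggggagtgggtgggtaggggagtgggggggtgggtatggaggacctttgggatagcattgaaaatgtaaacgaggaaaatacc
Gm32729 (TC1400001116.mm.1, chr14:86172704-86173003, plus strand): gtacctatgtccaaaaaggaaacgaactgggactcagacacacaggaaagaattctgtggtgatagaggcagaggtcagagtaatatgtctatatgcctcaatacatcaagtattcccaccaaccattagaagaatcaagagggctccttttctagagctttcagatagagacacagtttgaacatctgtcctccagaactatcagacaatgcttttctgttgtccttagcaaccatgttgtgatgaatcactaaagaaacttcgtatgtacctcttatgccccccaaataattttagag

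Higher members with the largest rises among the 8 were TC0400002118.mm.1, given above, TC0700002071.mm.1, which averaged 6.75 and 8.91, and TC1300001359.mm.1, at 5.92 and 7.38. The last holds GTTGCCA, in capitals, and the others hold none of the motifs.
Gm52720 (TC0400002118.mm.1, chr4:3200250-3200549, minus strand): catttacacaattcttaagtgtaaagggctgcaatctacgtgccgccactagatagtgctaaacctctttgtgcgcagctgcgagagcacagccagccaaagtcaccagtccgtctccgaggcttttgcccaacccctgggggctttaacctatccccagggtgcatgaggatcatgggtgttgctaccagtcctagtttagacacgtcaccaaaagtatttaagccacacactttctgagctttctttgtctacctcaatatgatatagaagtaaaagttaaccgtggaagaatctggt
Gm45889 (TC0700002071.mm.1, chr7:142282964-142283263, plus strand): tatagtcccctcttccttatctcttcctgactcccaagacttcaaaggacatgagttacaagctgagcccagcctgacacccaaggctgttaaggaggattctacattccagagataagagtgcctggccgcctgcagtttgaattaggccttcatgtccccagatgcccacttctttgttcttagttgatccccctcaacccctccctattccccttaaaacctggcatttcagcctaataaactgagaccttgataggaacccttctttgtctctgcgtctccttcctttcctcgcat
Gm36161 (TC1300001359.mm.1, chr13:120010092-120010391, plus strand): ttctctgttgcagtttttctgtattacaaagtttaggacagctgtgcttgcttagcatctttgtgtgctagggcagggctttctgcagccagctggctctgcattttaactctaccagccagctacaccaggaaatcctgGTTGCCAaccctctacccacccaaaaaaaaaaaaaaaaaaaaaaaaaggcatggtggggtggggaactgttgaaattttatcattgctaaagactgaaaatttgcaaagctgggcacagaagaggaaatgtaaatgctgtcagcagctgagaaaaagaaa

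Of the 5 windows with TGACGTCA, chosen after the counts were seen, those of the 3 largest falls show where the element lies, in capitals. TC1400002712.mm.1 averaged 8.38 and 6.32, TC1000001491.mm.1 8.05 and 6.27 and TC1000001741.mm.1 8.69 and 6.97. *Crem*, the gene of the activator of this element in round spermatids, was lower itself, at 8.30 and 7.27. Whether CREM acts at these clusters was not tested.
Gm31981 (TC1400002712.mm.1, chr14:118211656-118211955, minus strand): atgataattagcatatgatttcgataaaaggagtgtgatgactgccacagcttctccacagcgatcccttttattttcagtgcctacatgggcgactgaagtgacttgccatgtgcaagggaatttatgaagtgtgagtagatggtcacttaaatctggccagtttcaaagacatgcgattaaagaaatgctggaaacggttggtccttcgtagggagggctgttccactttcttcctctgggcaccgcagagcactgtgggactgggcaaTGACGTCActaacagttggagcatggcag
Gm51756 (TC1000001491.mm.1, chr10:121185311-121185610, plus strand): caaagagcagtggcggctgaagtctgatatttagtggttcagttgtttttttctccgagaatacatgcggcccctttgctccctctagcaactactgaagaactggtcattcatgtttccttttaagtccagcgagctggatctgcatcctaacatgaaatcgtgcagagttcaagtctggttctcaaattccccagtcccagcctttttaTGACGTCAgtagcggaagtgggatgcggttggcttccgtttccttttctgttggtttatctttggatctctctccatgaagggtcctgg
Gm31904 (TC1000001741.mm.1, chr10:10234829-10235128, minus strand): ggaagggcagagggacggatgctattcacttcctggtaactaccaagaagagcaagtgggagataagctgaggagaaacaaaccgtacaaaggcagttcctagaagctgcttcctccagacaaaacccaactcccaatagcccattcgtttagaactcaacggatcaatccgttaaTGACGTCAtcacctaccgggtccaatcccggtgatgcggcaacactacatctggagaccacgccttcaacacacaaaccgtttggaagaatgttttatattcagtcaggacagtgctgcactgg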

How the data were processed

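Mouse transcriptome arrays were hybridized with tubule RNA, 3 from wild-type and 4 from *Ctcf*-cKO mice. The submitters' processing notes name Expression Console 1.4.1, RMA, Transcriptome Analysis Console 3.0 and build mm10. The authors deposited log2 bi-weight averages per genotype, written with decimal commas, for the rows past their fold change and p. The table's columns of fold change, p and adjusted p hold the authors' own comparison and were not used. Differences were computed as the *Ctcf*-cKO average minus the wild-type average with Python 3.11.15 (pandas 2.3.3, scipy 1.17.1), and the steps were tested on simulated data. Members and lists were chosen with earlier results of these data known. Regions were named by rule: the 10 largest differences each way, the 5 highest averages per genotype, the 5 largest spans and the 5 runs with the most members (of runs over 8 members, the ends and extremes). Of the runs tied at 5 members, the longest was taken. Other regions and genes, including the further runs, the small RNA records and the microRNAs, were chosen after their values were seen. Markers were looked up among Coding and Complex rows, and signals summed on the linear scale. No genome was used, so the planned motif search and sequences at all 5′ ends were limited to RefSeq promoter windows (GRCm38.p6), and repeat and GC shares of the clusters were not computed. RefSeq strands came from these windows or, failing that, from a table row with the gene's symbol. 1 result on an item withheld for evaluation is not reported here.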

Additional observations from a re-analysis of the deposited data

How the results depend on the processing

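Values here are from group averages, so leaving out each mouse was not run. No paired analysis was possible because the table holds no values of single mice. Of 56 values under other settings, 40 stayed within the limits set, 1.5 times for counts and the 95% binomial interval for the share and the medians, among them all values for other span, strand distance, signal and equal-row settings. With a difference of 3-fold or more, 286 members were lower and 69 higher (80.6% lower), with medians of -1.75 and 1.90. The selection itself requires smaller counts and larger medians, but not the change in share. Over all rows the same cut left 945 lower and 637 higher. Members without a RefSeq gene assigned to their strand or left without strand numbered 439 lower and 90 higher (83.0% lower), the higher ones with a median of 1.30. Restricting to the class Linc or to records without a class, a setting chosen after seeing the data, left 166 higher members (83.4% lower) with a median of 1.29. Subtracting the median difference of the whole table gave 663 higher members, 56.9% lower and medians of -0.30 and 2.19, because it adds the same amount to every row. Counts of runs and of members in runs stayed within 1.5 times the main value, from 167 runs at 50 kb to 273 at 250 kb. Signal near the array's background limits the weakest members: 1369 of 1540 reached 6 in either genotype.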

Other observations

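The mitochondrial genome held 3 members, all higher. TC0M00000018.mm.1 (chrM:15356-16294, plus) averaged 10.33 in wild-type and 12 in the mutant, and TC0M00000030.mm.1 (chrM:15763-16188, minus), which lies within it on the other strand, 8.53 and 9.62. TC0M00000026.mm.1 (chrM:9203-9888, minus) averaged 8.35 and 9.42. The other 5 rows of the mitochondrial genome, all for transfer RNAs, were higher too, so that 8 of 8 rows went the same way.

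All 6 members on chromosome Y were lower, by between -1.29 and -1.04, where 97.7% of all rows of that chromosome were lower. The 5 members on unplaced sequences of chromosome 4 were lower as well, where 100% of all rows of these sequences were lower. Of these 5 members, 3 of 265 bp had the same averages, 9.39 and 7.76. Likewise, 4 clusters of chromosome 3 between 113249176 and 113349451 all averaged 8.45 and 6.49. In all, 32 members shared both averages, to the 2 decimals deposited, and the number of probes with another member, 8 of them with a member of their own run. Neither how many of these matches arise by coincidence at that rounding nor whether such rows are separate transcripts was tested.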
